A study of Mus musculus with 6 samples.

Results

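Megakaryocytes are the bone marrow cells that shed platelets, and 10 genes whose products belong to megakaryocytes and platelets are described here: Pf4, Ppbp, Vwf, Gp1ba, Gp9, Gp6, Plek, Nfe2, Selp and Treml1. They were chosen by name, and every probe set whose platform annotation names 1 of them and no other gene was taken. This gave 13 of the 45037 probe sets that are not array controls, for 9 of the 10 genes. Gp1ba is named by no probe set in the annotation used here and is not analysed. Plek and Selp have 3 probe sets each, and the other 7 genes have 1 each.

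The RNA came from mouse LSK cells, the lineage-negative, Sca1-positive, c-Kit-positive bone marrow fraction that holds stem cells and multipotent progenitors. Both groups were C57BL/6 mice that carried Mx1-Cre, a recombinase driven by an interferon-inducible promoter that acts in blood cells and in other tissues that respond to interferon. Control mice (3 arrays) were Srf+/+;Mx1-Cre, and SRF-null mice (3 arrays) were Srf flx/flx;Mx1-Cre. Both genotypes were given pIpC, a double-stranded RNA that induces interferon, from 6 weeks of age, as 3 doses of 200 µg at intervals of 2 days, and were examined 35 days after the last dose. Cells were sorted from pooled animals. The sources used here do not give the number of animals in a pool, and the p-values cover the spread between these arrays, which may in part be technical.

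Platelets carry alpha granules, which store the chemokines Pf4 and Ppbp, von Willebrand factor and the adhesion receptor P-selectin. At a wound, platelets stick to von Willebrand factor through the glycoprotein Ib-IX-V complex and to collagen through glycoprotein VI. Many of these genes are also transcribed at some level in stem cells primed for the megakaryocyte lineage, and SRF with its cofactors is known to be needed for megakaryocytes to mature. The comparison asks how these transcripts stood in LSK cells after Srf was deleted.

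Array values are log2(intensity + 16) after quantile normalization, so the bottom of the scale is 4, and over all probe sets the median was 7.98. Levels of different probe sets are not compared with each other, since probes differ in brightness. Differences are SRF-null minus control, with the standard error (SE) from limma, and means are given ± SD over n = 3 arrays. Before normalization the arrays had a median intensity of 201 to 292. The brighter probe set of Srf itself was at 13.03 ± 0.02 on the control and 12.60 ± 0.19 on the SRF-null arrays, a difference of −0.42 (SE 0.14, limma p 0.0247, adjusted p 1), and the dimmer one differed by 0.10 (SE 0.35, p 0.785). The positions of both relative to the deleted part are unknown here. Control replicate 2 had Eif2s3y, a gene of the Y chromosome, at 4.37 (13.06 to 14.50 on the other arrays), and SRF-null replicate 1 had Xist, a transcript of the inactive X chromosome, at 5.03 (15.13 to 16.24 on the others). These 2 arrays thus carried transcripts of 1 sex and the other 4 of both. The sorting marker Kit was well above the bottom of the scale, at 15.09 in control and 14.89 in SRF-null cells. So were Cd34 (16.74 and 16.85) and Flt3 (15.31 and 15.43). Cd34 and Flt3 were the 2 of 8 measured genes of the sort and of stem cells that were higher in SRF-null cells. The other 6 were lower, and the median difference of the 8 was −0.19. Tek (−0.84, SE 0.19, limma p 0.00429, adjusted p 0.936) was the 1 of the 8 that did not overlap, against 10.6% of all genes. Slamf1 differed by −1.40 (SE 0.62) and overlapped.

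The upstream sequences of 3 genes are shown because the results below turn on their genes. Pf4 and Ppbp had a Pearson r of 0.83 over the 6 arrays, and Plek had the smallest p among the members. Pf4 and Ppbp are direct neighbours on mouse chromosome 5, with 2371 bases between them. Each sequence is the 250 bases before the gene's start, 5′ to 3′ on the gene's own strand, from RefSeq's promoter table for GRCm38.p6. Capitals mark the CArG box, which SRF binds, the GATA motif (GATA) and the core of the ETS factor motif (GGAA), on either strand. The Pf4 sequence lies at chr5:90772185-90772434 (plus strand), the Ppbp sequence at chr5:90768268-90768517 (plus strand) and the Plek sequence at chr11:17008719-17008968 (minus strand).
Pf4: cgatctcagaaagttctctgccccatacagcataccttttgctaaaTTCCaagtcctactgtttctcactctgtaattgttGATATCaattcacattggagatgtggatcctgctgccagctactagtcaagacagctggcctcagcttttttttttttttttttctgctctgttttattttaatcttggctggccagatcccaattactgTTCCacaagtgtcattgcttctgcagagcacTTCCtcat
Ppbp: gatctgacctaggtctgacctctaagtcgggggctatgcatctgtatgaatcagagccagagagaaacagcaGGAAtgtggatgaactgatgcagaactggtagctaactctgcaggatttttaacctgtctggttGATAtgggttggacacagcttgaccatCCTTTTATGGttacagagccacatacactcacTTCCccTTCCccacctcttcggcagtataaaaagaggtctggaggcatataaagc
Plek: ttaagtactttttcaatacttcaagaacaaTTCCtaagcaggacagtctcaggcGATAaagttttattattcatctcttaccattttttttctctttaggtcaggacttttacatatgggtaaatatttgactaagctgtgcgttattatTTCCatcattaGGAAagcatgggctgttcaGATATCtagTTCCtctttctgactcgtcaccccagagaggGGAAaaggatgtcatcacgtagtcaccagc

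Of the 10 members 8 have an entry in the promoter table, and Vwf and Nfe2 do not. A CArG box was found in 1 of the 8, Ppbp, and in 1.47% of all 32851 promoters in the table. GATA was found in 8 of 8 members and in 53.6% of all promoters, and GGAA in 8 of 8 and in 93.4%. In the Pf4 sequence the GATA letters occur on both strands at 1 place (2 matches that overlap), and Plek holds 3 GATA matches, of which 2 overlap in the same way. These are matches of letters and show no binding.

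No member passed the test for a difference between genotypes, and the members did not share a direction. By limma 0 of 13 member probe sets had an adjusted p under 0.05, where the background over all probe sets was 0% (0 of 45037). An unadjusted p under 0.05 was found for 2 of 13, both of Plek, where the background was 4.39% (1975 probe sets). On the brightest probe set of each gene 5 of 9 genes were higher and 4 lower in SRF-null cells, with a median difference of 0.34, against −0.01 over 18193 genes. The arrays of the genotypes did not overlap for 5 of 13 probe sets, against 9.23% of all probe sets. Of the 5, 3 were higher (4.73% of all probe sets) and 2 lower (4.5%). Among genes the arrays did not overlap for 4 of 9, against 10.6% of all genes on their brightest probe set. These 4 genes were Plek and Gp9, which were higher, and Nfe2 and Gp6, which were lower, and Gp6 lay at the bottom of the scale. After median centring Gp9 and Gp6 overlapped, and Plek and Nfe2 did not. In bulk samples fewer cells of a type and less RNA per cell cannot be told apart, which holds for every value here.

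**Figure D1:**
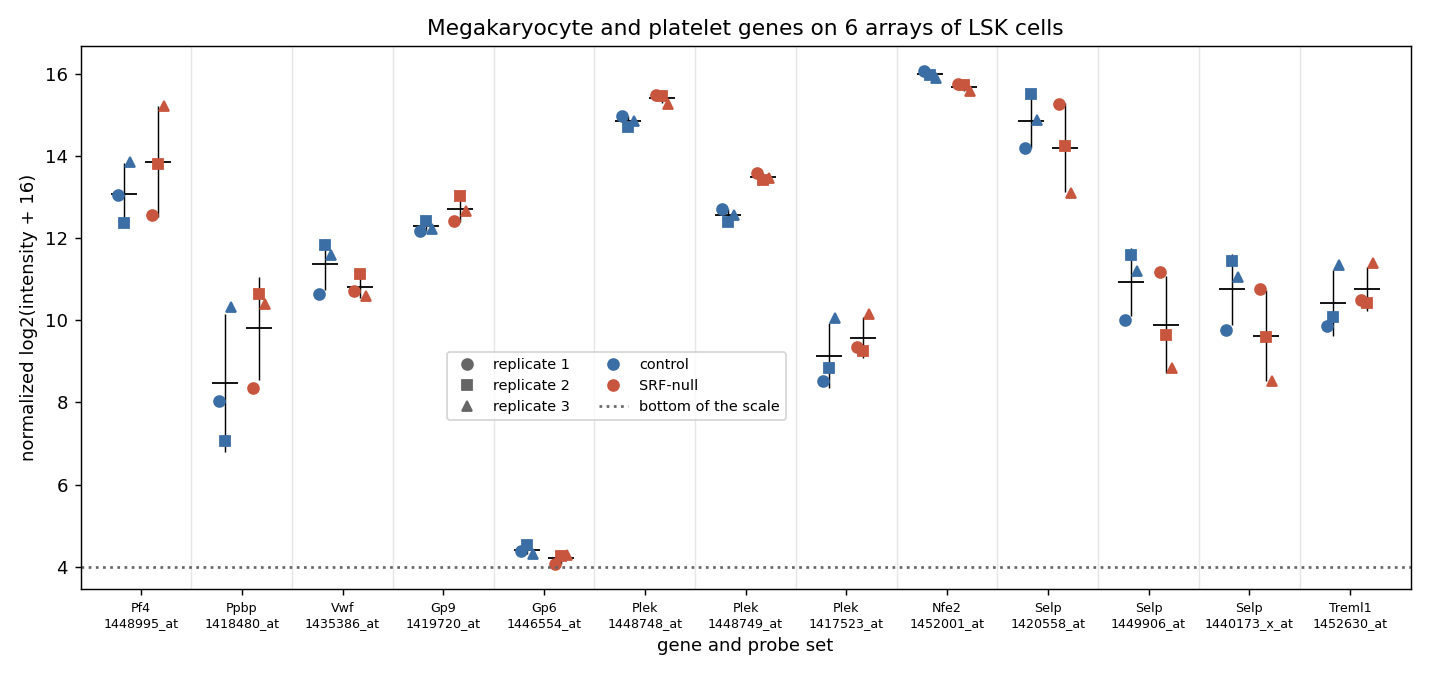
Normalized log2 value of each of the 13 member probe sets on the 6 arrays. Colours give the genotype, symbols the replicate number, and black bars the mean ± SD (n = 3). The SRF-null points of Plek lie above the control points on its first pair of probe sets, Nfe2 shows the opposite order, Gp6 sits near the bottom of the scale at 4, and the points of Pf4, Ppbp and Selp spread widely within each genotype.

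Plek, which encodes pleckstrin, the main substrate of protein kinase C in platelets, stood higher in the SRF-null group on both of its brighter probe sets. On the brightest (1448748_at) the control arrays were at 14.96, 14.70 and 14.85 and the SRF-null arrays at 15.47, 15.46 and 15.26. All 3 SRF-null arrays lay above all 3 control arrays, by a mean of 0.56 (SE 0.14), or 1.48-fold, with a limma p of 0.00664 and an adjusted p of 0.987. On the second probe set (1448749_at) the control arrays were at 12.70, 12.40 and 12.55 and the SRF-null arrays at 13.58, 13.40 and 13.47. The groups were again apart, by 0.94 (SE 0.14, 95% interval 0.60 to 1.27), or 1.91-fold, with a limma p of 0.000525 and an adjusted p of 0.897. The third and dimmest probe set (1417523_at) differed by 0.44 (SE 0.46), less than its spread: control arrays were at 8.52, 8.85 and 10.05 and SRF-null arrays at 9.35, 9.25 and 10.14. Across the 6 arrays the 2 brighter probe sets followed each other (Pearson r 0.969), while the third followed the brightest only loosely (r 0.215).

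Pleckstrin is also made by myeloid cells, so the markers of monocytes and macrophages stand beside it. Of 10 such markers 8 were higher in SRF-null cells. The arrays did not overlap for 2 of the 10, against 10.6% of all genes. These were the complement gene C1qa (6.40 and 8.10) and the mannose receptor gene Mrc1 (7.30 and 9.39). The mean of the list was 8.28, 8.57 and 8.72 on the control arrays and 8.54, 9.66 and 10.11 on the SRF-null arrays, and 0 of the 10 markers had a mean under 5. SRF-null replicate 1, whose list mean lay within the range of the control arrays, had the highest value of Plek on both brighter probe sets (15.47 and 13.58). SRF-null replicate 3, with the highest list mean, was at 15.26 and 13.47, the lowest SRF-null array on the brightest probe set and the middle one on the second. The median difference of the list was 0.81. Of 10 granulocyte markers 6 were higher and 4 lower, with a median of 0.11, and 0 did not overlap. Of 6 T and NK cell markers 5 were higher and 1 lower, with a median of 0.37, and 2 did not overlap. The part of any of these cells in the Plek difference was not tested.

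Nfe2, the blood-cell subunit of a transcription factor that drives platelet release, stood slightly lower in SRF-null cells. The control arrays were at 16.07, 15.96 and 15.90 and the SRF-null arrays at 15.75, 15.73 and 15.57. The highest SRF-null array was still under the lowest control array, and the difference was −0.29 (SE 0.13), or 1.23-fold, with a limma p of 0.0594 and an adjusted p of 1. The small Maf proteins are the partners that Nfe2 binds DNA with, and the genes Mafg (0.02, SE 0.17) and Mafk (−0.05, SE 0.13) differed by less than their standard errors, as did Maff (−0.33, SE 0.47). Maff, Mafg and Mafk are named as the partners of Nfe2, outside the rule for named genes.

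Gp9, the smallest subunit of the receptor for von Willebrand factor, was at 12.18, 12.41 and 12.23 in control cells and at 12.42, 13.01 and 12.66 in SRF-null cells. The groups were apart by a narrow margin, since the lowest SRF-null array (12.42) and the highest control array (12.41) nearly touched, and after median centring in place of quantile normalization they overlapped (0.36, SE 0.30). The difference was 0.42 (SE 0.19), or 1.34-fold, with a limma p of 0.0679 and an adjusted p of 1. The other subunits that were measured, named here outside the rule for named genes, overlapped between the genotypes. Gp1bb, at 7.38, 9.15 and 9.99 in control and 8.39, 9.78 and 10.44 in SRF-null cells, differed by 0.70 (SE 0.81, limma p 0.422). Gp5 was at 9.32, 10.52 and 10.31 in control and 9.49, 10.63 and 10.42 in SRF-null cells and differed by 0.13 (SE 0.43). Between arrays of equal number both were higher in all 3 pairs, as Gp9 was, Gp1bb by 1.02, 0.63 and 0.45 and Gp5 by 0.17, 0.11 and 0.12. With the number as a block the limma p of Gp1bb was 0.0124 (adjusted p 0.631) and that of Gp5 was 0.354.

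Gp6, the collagen receptor of platelets, lay at the bottom of the scale on every array. Its deposited intensity was 5.03, 6.62 and 4.04 on the control arrays and 0.609, 3.51 and 3.69 on the SRF-null arrays, and all normalized values were between 4.06 and 4.53. The difference of −0.21 (SE 0.14, limma p 0.174) therefore depends on the offset, and it moved to −0.97 when 1 was added before the logarithm and to −0.06 when 64 was added. Fcer1g, the signalling chain that Gp6 shares with receptors of myeloid cells, was at 14.41, 14.21 and 15.11 in control and 15.36, 15.78 and 15.67 in SRF-null cells. The groups were apart by 1.03 (SE 0.27), or 2.04-fold, and the limma p was 0.00886 and the adjusted p 1. The list of monocyte and macrophage markers given beside Plek was also higher on SRF-null replicates 2 and 3. On SRF-null replicate 1 the list mean (8.54) lay within the control range (8.28 to 8.72), while Fcer1g (15.36) was above all controls. The part of these markers in the Fcer1g difference was not tested.

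**Figure D2:**
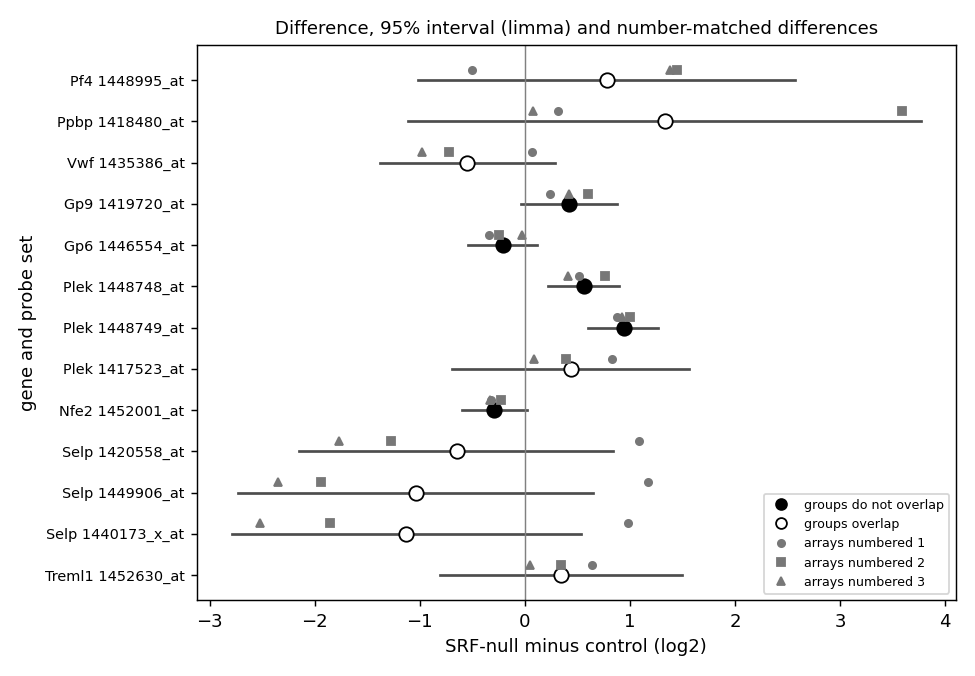
Difference between SRF-null and control arrays (log2) for each member probe set, with limma's 95% interval (bar), filled where the genotypes do not overlap. The small grey symbols are the differences between arrays of equal number. The bars of the 2 brighter Plek probe sets do not cross 0, all other bars do, and the arrays numbered 1 lie on the other side of 0 from the arrays numbered 2 and 3 for Pf4, Vwf and all 3 probe sets of Selp.

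The alpha granule genes varied as much within a genotype as between genotypes. Pf4, a chemokine gene used as a marker of the megakaryocyte lineage, was at 13.04, 12.37 and 13.84 in control cells and at 12.55, 13.81 and 15.22 in SRF-null cells. SRF-null replicate 3 was the highest of all arrays, SRF-null replicate 1 was lower than 2 of the 3 controls, and the groups overlapped. The mean difference of 0.78 (SE 0.73, 95% interval −1.02 to 2.57) was about its standard error, and without SRF-null replicate 3 it was 0.10 (SE 0.58).

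Ppbp, the neighbouring gene, which encodes the precursor of a chemokine that attracts neutrophils, was at 8.04, 7.06 and 10.32 in control and at 8.36, 10.65 and 10.40 in SRF-null cells. Control replicate 3 was close to the 2 highest SRF-null arrays, so the groups overlapped. The difference was 1.33 (SE 1.00), and it was 0.62 (SE 1.00) without control replicate 2 and 2.24 (SE 0.79, limma adjusted p = 1) without control replicate 3. Over the 6 arrays, which differ in genotype and replicate number, Pf4 and Ppbp had a Pearson r of 0.83, and both were lowest on control replicate 2. An r over 6 arrays can be high between genes that share nothing, and it was not tested. Plek and Gp6 had an r of −0.83 although Gp6 lay at the bottom of the scale. The receptors proposed for these chemokines, Cxcr3 for Pf4 and Cxcr2 for Ppbp, differed by 1.55 (SE 0.64) and 0.73 (SE 0.68), and both groups of arrays overlapped. Cxcr3 had a limma p of 0.0517 and an adjusted p of 1. Between arrays of equal number Cxcr3 was higher in all 3 pairs, by 1.01, 1.61 and 2.03. With the number as a block its limma p was 0.0021 (adjusted p 0.577).

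Treml1, a receptor held in the granule membrane of resting platelets, was at 9.85, 10.08 and 11.34 in control and at 10.48, 10.42 and 11.39 in SRF-null cells. The arrays numbered 3 were the highest of each genotype and nearly equal. The difference was 0.34 (SE 0.47), and it was 0.03 (SE 0.49) without SRF-null replicate 3. Treml1 followed Pf4 (r 0.77) and Ppbp (r 0.74) over the 6 arrays.

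Selp, which encodes P-selectin, ran against Pf4. On its brightest probe set (1420558_at) it was at 14.18, 15.51 and 14.88 in control and at 15.26, 14.23 and 13.10 in SRF-null cells. The highest array was control replicate 2, followed by SRF-null replicate 1, and the lowest was SRF-null replicate 3, so the groups overlapped. The difference was −0.65 (SE 0.61), and without SRF-null replicate 3 it was −0.10 (SE 0.51). The other 2 probe sets (1449906_at and 1440173_x_at) differed by −1.04 (SE 0.69) and −1.13 (SE 0.68). The 3 probe sets followed each other closely over the arrays, with Pearson r values of 0.969, 0.971 and 0.993, and their highest and lowest arrays were 2.40, 2.74 and 2.91 apart. Over the 6 arrays Selp and Pf4 had a Pearson r of −0.88.

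The 2 arrays with transcripts of 1 sex, control replicate 2 and SRF-null replicate 1, had the 2 highest values of Selp and the 2 lowest values of Pf4. The 2 arrays were of opposite sex by these transcripts. Control replicate 2 had Eif2s3y at 4.37 and Xist at 15.97, and SRF-null replicate 1 had Eif2s3y at 14.35 and Xist at 5.03. With both left out the difference of Selp was −0.86 (SE 0.51) and that of Pf4 was 1.07 (SE 0.60), and the part of sex in either gene was not tested. Selp and Vwf are also made by endothelial cells. The mean of 8 endothelial markers was 9.37, 9.40 and 9.54 in control and 9.18, 9.30 and 9.22 in SRF-null cells, 3 of the 8 were higher and 5 lower in SRF-null cells, and 1 of the 8, Lyve1, had a mean under 5. The genotypes separated for 2 of the 8, against 10.6% of all genes, and both were lower in SRF-null cells. Tie1 differed by −0.93 (SE 0.24, limma p 0.00842) and Eng by −0.66 (SE 0.17, limma p 0.00773), neither past the adjustment. The defining gene Cdh5 was at 6.74 in control and 7.12 in SRF-null cells. The mean of 8 genes of the sort and of stem cells was 15.10, 14.86 and 14.70 in control and 14.76, 14.70 and 14.11 in SRF-null cells. It was lowest on SRF-null replicate 3, as Selp was. Tek, 1 of these 8, was lower with no overlap (−0.84, SE 0.19), as Tie1 and Eng were. The part of these markers in the Selp and Vwf values was not tested.

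Vwf, the large adhesive protein that platelets bind, was at 10.65, 11.84 and 11.58 in control and at 10.72, 11.12 and 10.60 in SRF-null cells. Control replicate 1 lay among the SRF-null arrays, and the other 2 controls lay above them all. The difference was −0.55 (SE 0.34, 95% interval −1.38 to 0.29) with a limma p of 0.161 and an adjusted p of 1, and it was −0.91 (SE 0.22, adjusted p = 0.532) without control replicate 1. Vwf and Selp had a Pearson r of 0.64 over the 6 arrays.

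**Figure D3:**
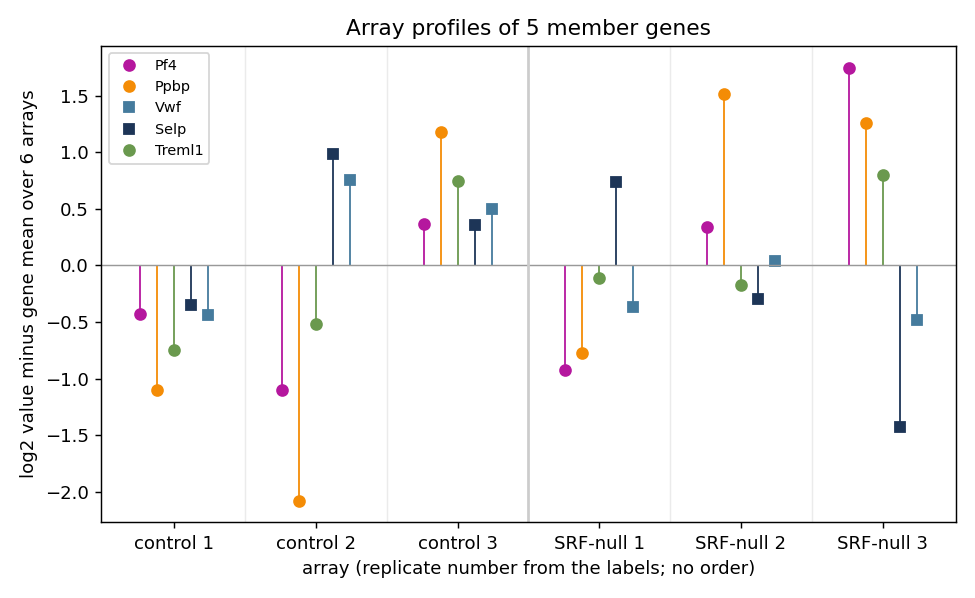
Value of 5 member genes on each array, minus the gene's mean over the 6 arrays (log2), on the brightest probe set. Circles are Pf4, Ppbp and Treml1 and squares are Selp and Vwf. On control replicate 2 the squares lie above 0 and the circles below, and on SRF-null replicate 3 the circles lie above and the squares below.

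Red cell precursors share many genes with megakaryocytes, and 10 erythroid markers were set beside the array profile of Pf4. Their mean was 10.09, 10.32 and 10.17 in control and 9.41, 10.39 and 10.89 in SRF-null cells, so it was lowest on SRF-null replicate 1 and highest on SRF-null replicate 3. Pf4 was also highest on SRF-null replicate 3, but it was lowest on control replicate 2 (12.37), where the erythroid mean was the highest of the controls. Of these markers 7 were higher and 3 lower in SRF-null cells, with a median difference of only 0.02. The genotypes separated for 0 of the 10, against 10.6% of all genes, and 2 markers had a mean under 5. The 2 were the hemoglobin gene Hba-a1 (4.39 and 4.39) and the heme synthesis gene Alas2 (4.43 and 4.47), which mark maturing red cells and lay near the bottom of the scale in both genotypes. Klf1, an erythroid transcription factor, was at 11.02 and 11.54, and the part of erythroid cells in the Pf4 values was not tested.

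Replicate numbers are shared by the genotypes, and arrays of equal number deviated together, so the differences were also read within numbers. Of 13 member probe sets 8 had the same direction in all 3 number pairs (6 higher and 2 lower), against 28.2% of all probe sets. The 8 were the 5 probe sets already named as not overlapping, Ppbp, Treml1 and the third probe set of Plek. Groups that do not overlap have 1 direction under any pairing, so those 5 repeat the earlier count and add nothing to it. All 3 probe sets of Plek are among the 8. With the number as a block 3 of 13 had an unadjusted limma p under 0.05, where the background was 7.08%, and 0 passed the adjustment. These 3 were Gp9 and the 2 brighter probe sets of Plek. For Plek the differences were 0.52, 0.76 and 0.41 on the brightest and 0.88, 1.00 and 0.92 on the second probe set, for Nfe2 −0.32, −0.23 and −0.33, and for Gp9 0.24, 0.60 and 0.42. Treml1 differed by 0.64, 0.34 and 0.05. Ppbp differed by 0.32, 3.59 and 0.08, so the second pair made most of its mean. Pf4 differed by −0.50, 1.45 and 1.38 and Selp by 1.09, −1.27 and −1.77, so the pair numbered 1 went against the other 2 in both genes.

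A wider list of megakaryocyte genes, with the partners of the member proteins, was centred on no difference. Of 99 genes listed 92 were measured, 45 of them higher and 47 lower in SRF-null cells, with a median difference of −0.01, the same as over all genes. By limma 0 of the 92 passed an adjusted p of 0.05 and 8 (8.7%) had an unadjusted p under 0.05, against 4.95% of all genes. The arrays did not overlap for 11 of 92, or 12%, close to the 10.6% of all genes.

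Among surface receptors 5 of 22 separated the genotypes, where 10.6% of all genes did. Of the 5, 3 were higher and 2 lower. P2ry12, the platelet ADP receptor that clopidogrel blocks, was at 5.08, 4.78 and 4.70 in control and at 6.03, 5.66 and 5.82 in SRF-null cells. All 3 SRF-null arrays were higher, by 0.98 (SE 0.17, limma p 0.00123, adjusted p 0.917), although the gene was dim in both genotypes. Tbxa2r, the thromboxane receptor, differed by 1.05 (SE 0.37), and the adhesion gene Jam3 by −1.14 (SE 0.22) on its brightest and by 0.79 on its other probe set. F2r, 1 of the listed genes of the thrombin receptor family, differed by −0.53 (SE 0.22). Its relatives F2rl2 (0.28, SE 0.58) and F2rl3 (−0.22, SE 0.32) overlapped between the genotypes. F2r, F2rl2 and F2rl3 are named after their values were seen. Itga2b and Itgb3, the chains of the fibrinogen receptor, are named outside the rule as the main receptor of platelets. Itga2b differed by 0.21 (SE 0.28), and Itgb3 by −0.70 (SE 0.27) on its brighter and by 0.03 on its dimmer probe set. On the brighter one the arrays overlapped, but Itgb3 was lower in all 3 number pairs (−0.59, −0.82 and −0.71). With the number as a block its limma p was 0.00509 (adjusted p 0.58).

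Among granule and vesicle genes 6 of 15 were higher and 9 lower (median −0.01). The arrays did not overlap for 2 of the 15, both lower, against 10.6% of all genes. Nbeal2, which alpha granules need to form, differed by −0.81 (SE 0.27, limma p 0.0232, adjusted p 1) and all 3 SRF-null arrays were lower. Rab27b, a trafficking GTPase, differed by −0.24 (SE 0.12) and also separated the genotypes, while the growth factor gene Pdgfa (0.89, SE 0.41) and the fusion regulator gene Stxbp2 (−0.31, SE 0.16) did not. Thbs1, the thrombospondin gene, was named after its values were seen. It was at 9.16, 13.24 and 11.57 in control and 4.98, 11.90 and 7.67 in SRF-null cells, a difference of −3.14 (SE 1.92), and the groups overlapped. Between arrays of equal number Thbs1 was lower in all 3 pairs, by −4.18, −1.34 and −3.90. With the number as a block its limma p was 0.00586 (adjusted p 0.58). The other probe set of Thbs1 differed by −0.84.

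Transcription factors of the lineage had a median of 0.02, with 8 of 15 higher. Those with the smallest p were Gfi1b (−0.47, SE 0.20), Runx1 (0.41, SE 0.21), Zfpm1 (−0.35, SE 0.29) and Fli1 (0.15, SE 0.13), and the arrays overlapped in all 4. The arrays did not overlap for 1 of the 15, against 10.6% of all genes. It was Mef2c (0.15, SE 0.14, limma p 0.328), named outside the rule for named genes. Mef2c was higher on all of its 5 probe sets, by 0.15 to 0.58. On other probe sets the differences reached −0.27 for Fli1 and −0.02 for Runx1. Genes of the cytoskeleton and of proplatelets had 7 of 14 higher and a median of −0.01. The arrays did not overlap for 2 of the 14, Tpm4 and Vcl, against 10.6% of all genes. Tpm4, a tropomyosin gene of platelets, differed by 2.21 (SE 0.29, adjusted p 0.811), and Vcl (0.18, SE 0.12), Actn1 (0.30, SE 0.19) and Gsn (0.35, SE 0.25) by less. On other probe sets the differences reached −0.20 for Vcl, −0.08 for Actn1 and −0.09 for Gsn. Signalling genes had 13 of 21 lower, with a median of −0.06, and the arrays overlapped for all 21. Gnaz (−0.37, SE 0.18), Rgs10 (0.32, SE 0.19), Dab2 (−0.58, SE 0.38) and Tbxas1 (−0.33, SE 0.31) had the smallest p among them. Another probe set of Dab2 differed by 0.06. Of the 10 partners of the member proteins 7 were higher, with a median of 0.28. The arrays did not overlap for 2 of the 10, against 10.6% of all genes. These were Fcer1g, given above, and Itga2, a chain of the collagen integrin, which differed by 0.42 (SE 0.24).

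**Figure D4:**
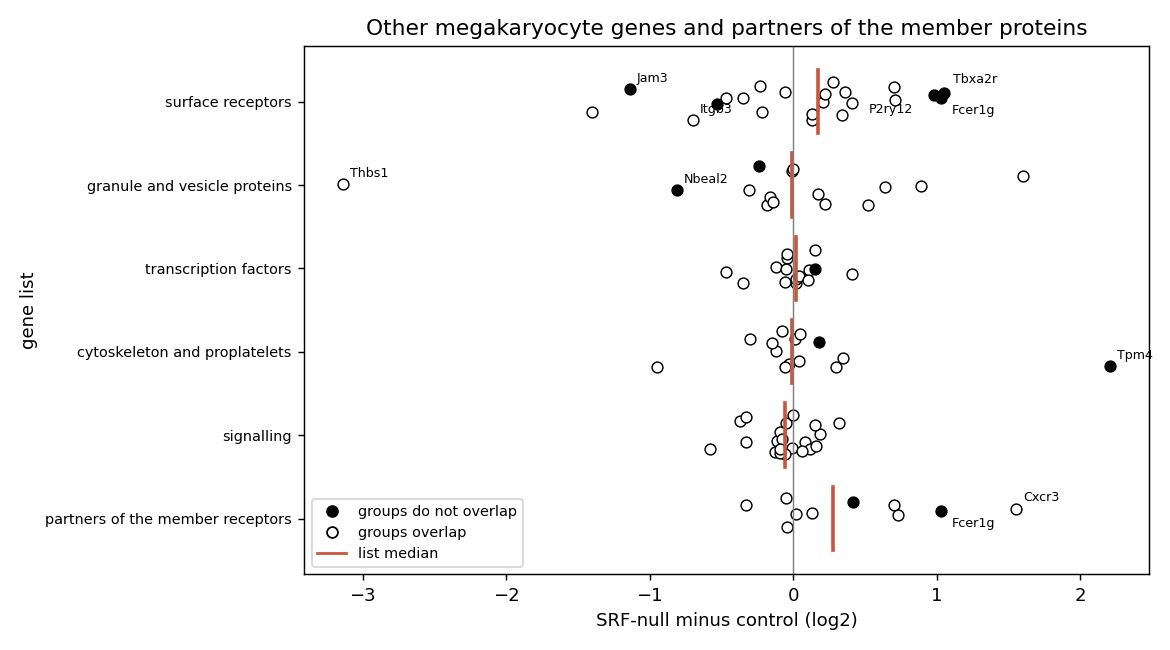
Difference between SRF-null and control arrays (log2) for each of the other megakaryocyte genes and partners, by list, on the brightest probe set. Filled points are genes whose genotypes do not overlap and red lines are list medians. The medians lie between −0.06 and 0.28, and Tpm4 at 2.21 and Thbs1 at −3.14 are the points farthest to either side.

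The mean of the 9 member genes, each centred on its own mean, was −0.35, −0.23 and 0.30 on the control arrays and −0.17, 0.24 and 0.21 on the SRF-null arrays. Among 9433 other genes with a mean of 10 or more, those with the highest Pearson r to this profile over the 6 arrays were Ppwd1 (0.990), Rtf2 (0.984), Zbtb33 (0.981), Tsga8 (0.980) and Btbd2 (0.980). Their own differences between genotypes were between 0.06 and 0.11. Picking the highest of 9433 genes over 6 arrays favours high r values, and these were not tested. The profile also averages members that ran against each other, such as Selp and Pf4 (r −0.88).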

How the data were processed

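LSK cells of 3 control and 3 SRF-null pools were profiled on Affymetrix arrays from 30 ng of total RNA, amplified and biotin-labelled with NuGEN kits, per the labels' protocols. The authors deposited an intensity for every probe set on each array, on a linear scale as the values show. How the authors summarised, background-corrected and scaled them the sources used here do not say, and no detection calls were used, so the number of arrays limits precision.

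Intensities were converted to log2(value + 16), quantile normalized over all 45101 probe sets and, without 64 controls, tested for genotype by lmFit and eBayes of limma 3.58.1 (R 4.3.3, two-sided). P-values were adjusted by Benjamini-Hochberg over 45037 probe sets, with a threshold of 0.05. Of these, 34945 named 1 gene in the platform annotation, 932 several and 9160 none, and all 13 member probe sets matched RefSeq gene IDs. The brightest probe set (highest mean) stood for a gene in counts of genes, 18193 in all. The fit was run on simulated independent normal values without pairing, with differences planted only in brighter probe sets of small spread. That run says nothing about members that vary widely, such as Pf4, or lie at the bottom of the scale, as Gp6 does. Figures were drawn with matplotlib 3.10.9.

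Named genes were all members, up to 4 of each list by smallest p, and 5 with the most similar array profile; others are marked where they occur. The members, lists and alternatives were chosen with earlier results of these data known. Alternatives were the offset, normalization, a filter on dim probe sets, the variance model, the replicate number as a block, how probe sets of a gene were combined, and arrays left out. Deviations from the group mean of arrays with equal number correlated at 0.473, 0.210 and 0.427 over all probe sets, so the numbers were taken to pair the arrays; the labels do not say what a number marks.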

Additional observations from a re-analysis of the deposited data

How the results depend on the processing

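The 13 member differences kept their direction in every alternative run for them, which was up to 16, and none passed an adjusted p of 0.05. The replicate block, the variance model, the filter on dim probe sets and 1 probe set per gene cannot change a difference. For these alternatives the direction was fixed in advance. Over the alternatives the brightest Plek probe set ranged from 0.46 to 0.65 (adjusted p 0.548 to 1), the second from 0.81 to 1.02 (0.484 to 1), Nfe2 from −0.33 to −0.24 (0.74 to 1), Gp9 from 0.26 to 0.63 (0.699 to 1), Pf4 from 0.10 to 1.43 and the brightest Selp probe set from −1.18 to −0.10. The replicate block, with the pairing of arrays by number, changed no call: 0 probe sets passed, and 3189 had an unadjusted p under 0.05 against 1975 without it.

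Median centring gave 1 probe set past the threshold and 3 member probe sets whose groups do not overlap, against 4.94% of all probe sets. Leaving out each array in turn gave 0 to 1 probe sets past the threshold (1 without control replicate 2), 5 to 8 member probe sets that do not overlap (8 without control replicate 1, control replicate 3 or SRF-null replicate 1), and a median of the member genes of 0.03 to 0.49, lowest without SRF-null replicate 3. Fewer arrays overlap less often, and the share over all probe sets was then 15.9% to 24.9%. With both arrays that carried transcripts of 1 sex, each of a different sex, left out, 8 member probe sets did not overlap, against 27.2% of all. Except where stated the cause was not tested. Intensities near the bottom of the scale limit Gp6 and P2ry12.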
